A study of Mus musculus with 8 samples.

Results

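The genes described here are 9 members of the Nodal and bone morphogenetic protein (BMP) pathways in mouse embryonic stem cells (ESCs). They are the ligands Nodal and Bmp4, the Nodal inhibitors Lefty1 and Lefty2, the intracellular inhibitors Smad7 and Skil, and the BMP target genes Id1, Id2 and Id3. They were taken by symbol from 55418 genes counted by RNA-seq, and all 9 passed the filter on low counts in each of 6 comparisons. The experiment addressed how the transcriptome of E14 ESCs changes when Hira, Ubn1 or Ubn2 is depleted. These are subunits of the HIRA complex, a chaperone that deposits the histone variant H3.3. There were 8 libraries in 4 groups of 2, namely control cells and cells with Hira, Ubn1 or Ubn2 shRNA. All groups shared the E14 line (strain label 12910la), gelatin-coated plates, medium with 15% serum and LIF, transfection with a pSuper puro plasmid, and 3 days of puromycin from 24 h after transfection. The control carries the genotype label wild type, and the study's methods give its shRNA as one against luciferase. Which shRNA against each gene was sequenced is not given in the sources used here, and nothing says that the 2 libraries of a group came from separate cultures. The p-values therefore measure only the spread between these libraries, which may be technical.

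Nodal is a secreted ligand of the TGF-beta superfamily that signals through activin receptors and the transducers SMAD2 and SMAD3. It needs the co-receptor encoded by Tdgf1, and its own targets include Nodal itself and the secreted inhibitors Lefty1 and Lefty2, so that the pathway holds both a positive and a negative loop. Bmp4 signals through SMAD1, SMAD5 and SMAD9, and in serum-grown ESCs the BMP signal is known for inducing the Id genes, whose products bind basic helix-loop-helix factors and hold back differentiation. Smad7 is induced by both branches and blocks the receptors, while Skil encodes SnoN, a corepressor of SMAD complexes.

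The targeted genes were measured first. Hira was at 89.4 and 97.6 CPM (counts scaled to a common library size) in control and at 10.0 and 10.4 CPM after Hira depletion (log2 fold change -3.22 ± 0.10 SE, n = 2 per group, edgeR adjusted p = 5.57e-15). The annotation places 44.7% of the exon bases of Hira also in Gm28539 on the same strand, so reads there may be shared. Ubn1 was at 53.0 and 44.1 CPM in control and 23.8 in both libraries after Ubn1 depletion (-1.03 ± 0.12, edgeR adjusted p = 4.02e-07). Ubn2 was at 50.1 and 51.7 CPM in control and 30.1 and 24.6 after Ubn2 depletion (-0.90 ± 0.10, edgeR adjusted p = 7.2e-07). The extent of depletion differed, with Hira RNA 9.29-fold lower but Ubn1 and Ubn2 RNA only 2.04- and 1.86-fold lower than in control. CPM values here are scaled by TMM, a normalization for differences in library composition. A change was called where the Benjamini-Hochberg adjusted p was under 0.05 and the fold change exceeded 1.5, and log2 values are given with their standard error. Without adjustment, edgeR gave a p under 0.05 for 8354 of 19035 genes after Hira, 4026 of 18373 after Ubn1 and 8560 of 18219 after Ubn2 depletion. Counts of listed genes with an unadjusted p under 0.05 are to be read beside these.

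Library totals ranged from 19710040 to 32706053 counts, and same-group libraries differed by more than counting error in every group (chi-square per degree of freedom from 6.30 to 14.2). The summed level of 8 ESC markers, Pou5f1 and Dppa5a highest, lay between 4678 and 5458 CPM in all 8 libraries, but single markers moved. Called were 0 of 8 after Hira and Ubn1 depletion and 1 of 8, lower, after Ubn2 depletion. Dppa5a was at 1302 and 1291 CPM in control and between 818 and 921 CPM in the 6 depleted libraries. Klf4 was at 189 and 220 CPM in control and at 130 and 145 CPM after Ubn2 depletion. Log2 values were positive for 4, 5 and 4 of the 8 after Hira, Ubn1 and Ubn2 depletion. Markers of other cell types moved with the depleted groups. The 12 heart and skeletal muscle markers, led by Actc1 and Myh6, summed to 388 and 241 CPM after Ubn2 depletion against 11.99 to 18.97 CPM in the other 6 libraries. All 12 were called after Ubn2 depletion, 11 of them higher, and none was at 0 there. The 7 red blood cell markers, led by Hbb-bs and Alas2, were at 8.73 and 5.25 CPM in those libraries against 0.614 to 1.14 elsewhere, with 2 of 3 tested called higher and 1 at 0 in each Ubn2 library. After Hira depletion the 6 trophoblast markers, led by Krt8 and Tfap2c, summed to 94.2 and 73.5 CPM against 46.9 to 54.0 elsewhere. Of 5 tested, 3 were called higher by edgeR, and DESeq2 called 2. Krt8 was at 56.6 and 48.2 CPM there against 25.2 and 22.7 in control, while Tfap2c, at 32.1 and 21.2 against 23.9 and 26.8, overlapped control. Of the same list 1 of 4 tested was called lower after Ubn2 depletion and 0 of 3 were called after Ubn1 depletion. The 6 markers of 2-cell-like cells, led by Zscan4c and Zscan4d, were at 2.83 and 5.06 CPM in control and at 10.0 to 25.7 CPM in the 6 depleted libraries. By edgeR 4 of 4, 3 of 4 and 5 of 5 tested were called higher after Hira, Ubn1 and Ubn2 depletion, while DESeq2 called 2, 1 and 3. The sum of the 8 mesenchyme markers lay between 31.6 and 45.4 CPM and that of the 6 endothelium markers between 119 and 132 CPM, but members of both lists moved. After Ubn2 depletion 5 of 6 tested mesenchyme markers were called, 3 higher and 2 lower, with Pdgfrb at 7.31 and 7.65 CPM against 18.7 and 22.9 in control and Thy1 at 7.59 and 10.1 against 13.6 and 14.0, and none of the 8 was at 0 there against 4 in each control library. After Hira depletion 2 of 3 tested were called, 1 in each direction. Of the endothelium markers, 2 of 4 tested were called higher after Hira and 3 of 5 after Ubn2 depletion, and 0 of 4 by edgeR or DESeq2 after Ubn1 depletion, where 1 had an unadjusted p under 0.05. Tek was at 14.2 and 12.8 CPM in control, 42.3 and 42.9 with Hira depleted and 21.7 and 22.0 with Ubn2 depleted, while Pecam1, most of the sum, was at 112 and 107, 82.6 and 77.2, and 95.5 and 96.7 CPM. The 7 primitive endoderm markers, led by Sparc and Lama1, summed to 199 to 258 CPM. By edgeR 1 of 7 was called higher after Hira and 2 of 7 lower after Ubn1 depletion, but DESeq2 called 0 in both. Ubn2 depletion gave 0 of 7 by edgeR or DESeq2, with 3 at an unadjusted p under 0.05 in edgeR. In bulk RNA, a change in the number of cells of a type and a change in RNA per cell cannot be told apart. The source of the muscle and red blood cell marker RNA in the Ubn2 libraries was not tested. The part of all these markers in the member values below was not tested either.

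In control cells, levels per kb of exon put Id1 highest at 71.7 ± 13.3 CPM per kb (SD, n = 2), followed by Nodal at 36.4 ± 1.25 and Smad7 at 26.2 ± 2.15. Lefty2 (22.4 ± 3.61), Bmp4 (16.5 ± 0.142), Lefty1 (16.4 ± 3.79) and Skil (11.1 ± 0.143) came next, and Id3 (5.93 ± 1.62) and Id2 (2.29 ± 0.133) were lowest. Smad7 and Lefty2 overlapped between libraries, as did Bmp4 and Lefty1, so these neighbours were not separated by their spread. The order changed with depletion. Lefty2 moved from rank 4 to rank 2 after Ubn1 depletion, at 50.4 ± 1.03 CPM per kb, next to Nodal at 48.7 ± 0.235. Id3 moved from rank 8 to rank 4 after Hira depletion, at 17.8 ± 5.89 CPM per kb, where its libraries overlapped those of Lefty2, Bmp4 and Lefty1, so that this rank was not separated from the next 3. Id1 remained highest and Id2 lowest in all 4 groups.

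**Figure D1:**
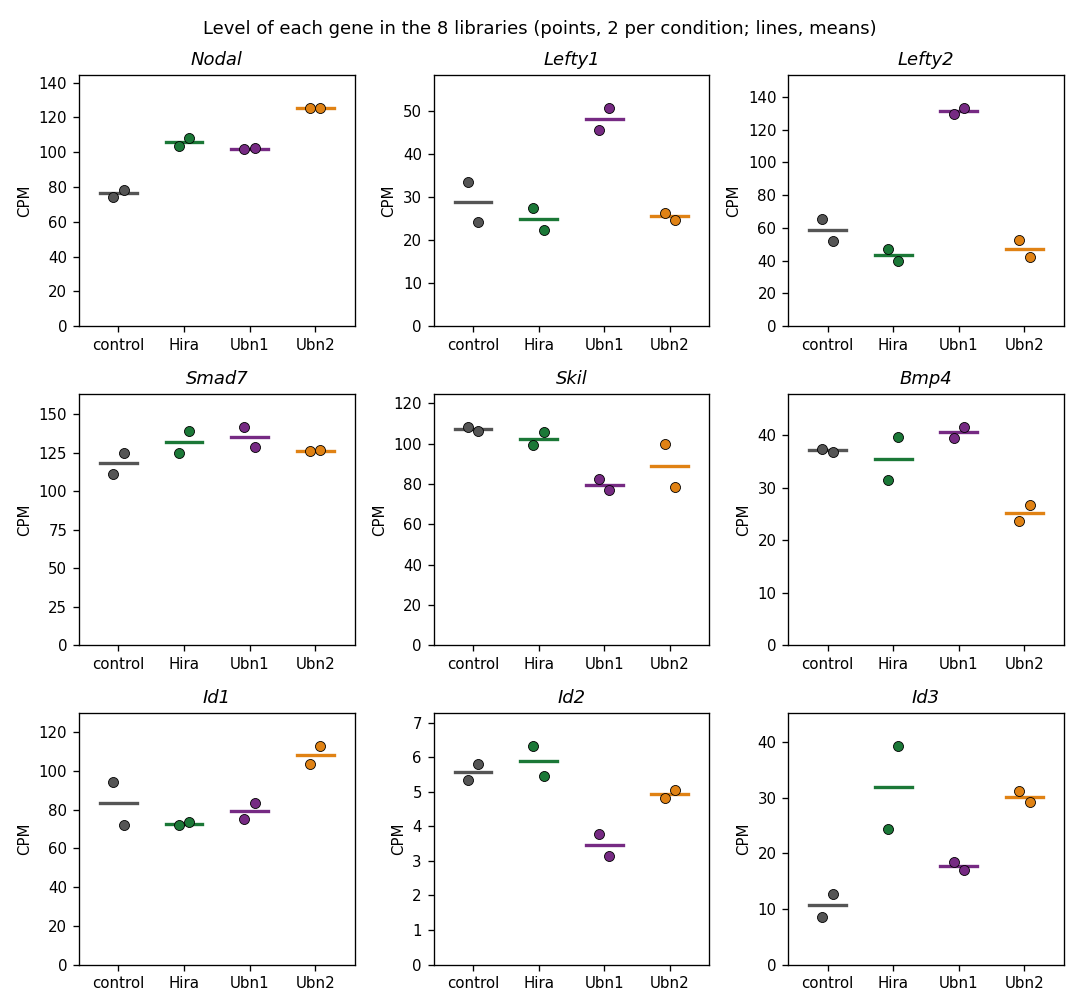
Each panel plots 1 member, with the group on the x axis and the level in CPM on the y axis. Points are single libraries and short bars are group means. Nodal sits above both control libraries in all 6 depleted libraries, Lefty1 and Lefty2 stand apart after Ubn1 depletion, and Id3 is lowest in the 2 control libraries.

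Against control, Id3 was the member called in all 3 depletions, Nodal was called after Ubn2 depletion, and Lefty1 and Lefty2 were called after Ubn1 depletion. All of these calls were increases. After Hira depletion 1 of 9 members was called, against 16.2% of the 19035 genes tested, and after Ubn2 depletion 2 of 9 against 18.3% of 18219. After Ubn1 depletion 3 of 9 were called against 3.09% of 18373, or 1.53% counting increases alone. The median log2 fold change of the 9 members was -0.09, 0.19 and -0.17 after Hira, Ubn1 and Ubn2 depletion, and the median of all genes tested was 0.01, 0.00 and 0.00. These 3 comparisons share the control libraries, so each set of values is given on its own. The members were chosen with earlier results of these data known, so their shares, here and between depletions, are no test of the set.

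**Figure D2:**
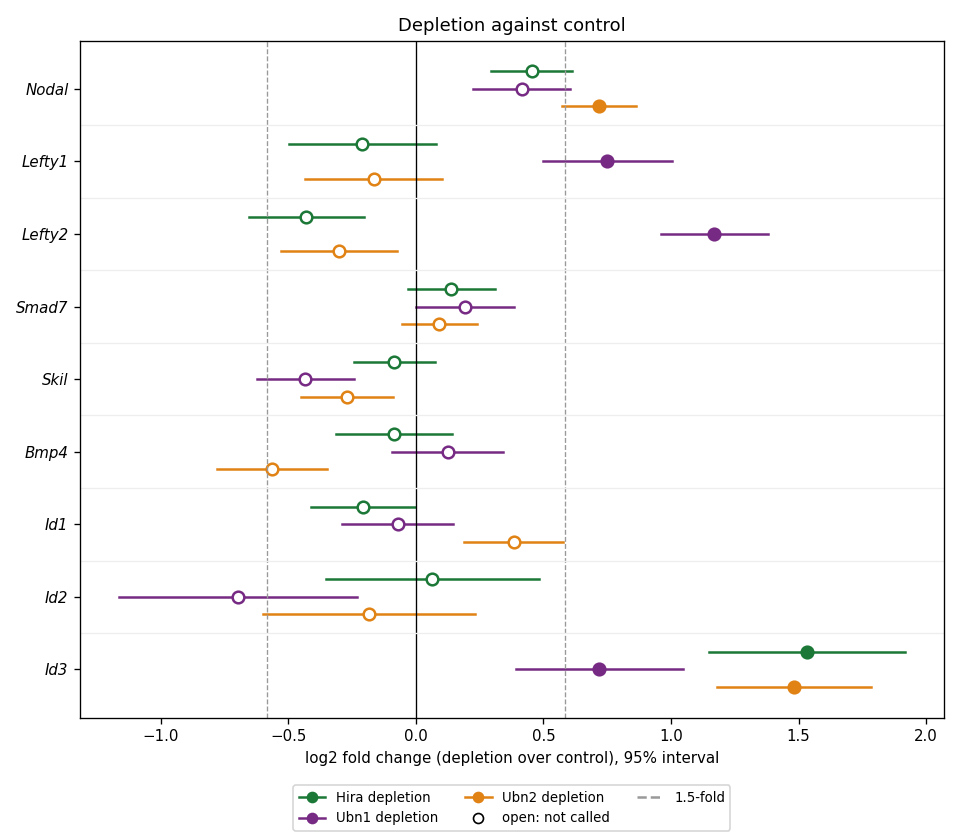
The log2 fold change of each member against control is plotted on the x axis for the 3 depletions, with 95% intervals as lines and dashed lines at 1.5-fold. Filled points passed both thresholds. Id3 is filled in all 3 depletions, Lefty1 and Lefty2 after Ubn1 depletion and Nodal after Ubn2 depletion.

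Nodal (chr10:61417972-61425338, + strand, GRCm38, 3 exon blocks) was at 74.5 and 78.2 CPM in control, 103.7 and 107.9 with Hira depleted, 101.6 and 102.3 with Ubn1 depleted, and 125.5 and 125.7 with Ubn2 depleted. The 6 depleted libraries all lay above the control libraries, and the 2 libraries of each group were close to each other. The increase passed both thresholds after Ubn2 depletion, at 1.64-fold (log2 0.72 ± 0.07, edgeR adjusted p = 7.17e-08). After Hira depletion the log2 value was 0.45 ± 0.08 (edgeR adjusted p = 0.000106) and after Ubn1 depletion 0.42 ± 0.09 (edgeR adjusted p = 0.00452), both under the fold threshold. Between depletions, the level after Ubn2 depletion differed from that after Hira depletion by a log2 value of -0.24 ± 0.07 for Hira over Ubn2 (edgeR adjusted p = 0.0152) and from that after Ubn1 depletion by 0.30 ± 0.08 (edgeR adjusted p = 0.0204), again under 1.5-fold. Hira and Ubn1 depletion differed by 0.06 ± 0.10, with a 95% interval from -0.14 to 0.26. The sequence around the annotated start of Nodal is shown because this ligand was above control in every depleted library. It runs 5′ to 3′ from 250 bases before to 50 bases after the RefSeq start (chr10:61417722-61418021, + strand, GRCm38.p6) and is printed in lower case because it held none of 3 motifs searched on both strands.
Nodal: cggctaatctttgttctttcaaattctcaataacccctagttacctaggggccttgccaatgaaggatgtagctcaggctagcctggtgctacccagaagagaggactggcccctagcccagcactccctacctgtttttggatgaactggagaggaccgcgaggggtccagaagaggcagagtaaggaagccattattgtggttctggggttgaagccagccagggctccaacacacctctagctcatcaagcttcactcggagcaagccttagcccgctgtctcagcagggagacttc
The motifs were CAGAC, the SMAD binding element, GGCGCC, a GC-rich element of BMP SMADs, and AATNNACA, the element of the SMAD partner FOXH1. They occurred in 49.6%, 11.9% and 12.2% of 32851 mouse promoter windows of the same length. Absence from this window says only that these letters are not in these 300 bases.

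Among all genes with a mean of at least 5 CPM, the 3 whose log2 levels across the 8 libraries were most like those of Nodal were Msln (Pearson r = 0.996), Dyrk1a (0.991) and Fam32a (0.988), of 12190 genes ranked. Id3 was the nearest member, at r = 0.879 and rank 596, and the other ranked members lay between 0.479 for Smad7 and -0.610 for Bmp4. These coefficients describe 8 libraries that share 4 conditions and 1 cell line, and genes with the same steps between groups will rank high.

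Lefty1 and Lefty2 are neighbours on chromosome 1 (chr1:180935022-180938400 and chr1:180893108-180899103, both + strand, 4 exon blocks each). Lefty2 was at 65.2 and 51.9 CPM in control and at 129.7 and 133.5 CPM after Ubn1 depletion, an increase of 2.25-fold (log2 1.17 ± 0.10, edgeR adjusted p = 3.07e-09). After Hira depletion it was at 47.4 and 39.9 CPM, below both control libraries (-0.43 ± 0.11, edgeR adjusted p = 0.00389, under the fold threshold). With each library left out in turn, this log2 value ranged from -0.59, without control replicate 2, to -0.27. After Ubn2 depletion Lefty2 was at 52.5 and 42.1 CPM, overlapping control (-0.30 ± 0.11, edgeR adjusted p = 0.0332). That value ranged from -0.47 to -0.14 with each library left out. The Ubn1 libraries thus stood above the other 6, which were spread between 39.9 and 65.2 CPM.

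Lefty1 followed the same order at lower levels. It was at 33.5 and 24.1 CPM in control, 45.6 and 50.8 with Ubn1 depleted, 27.4 and 22.4 with Hira depleted, and 26.2 and 24.8 with Ubn2 depleted. The increase after Ubn1 depletion was 1.68-fold (log2 0.75 ± 0.12, edgeR adjusted p = 0.000144), with no overlap between groups. The log2 values after Hira and Ubn2 depletion were -0.21 ± 0.14 and -0.17 ± 0.13 and did not pass the test, with intervals from -0.50 to 0.08 and from -0.44 to 0.10. The 2 control libraries of Lefty1 differed more from each other than most members did, and without control replicate 2 the value after Ubn1 depletion was 0.52, under the fold threshold. Across the 8 libraries Lefty1 and Lefty2 had r = 0.977. Exact 100-base words are shared by the annotated transcripts of both genes at 97 places, 5.85% of those of Lefty1 and 3.86% of those of Lefty2, so a small share of reads could be assigned to either gene, and the other 7 members shared none with any gene.

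The direct comparisons gave the same separation of the Lefty genes. Lefty2 was 2.99-fold lower after Hira than after Ubn1 depletion (log2 -1.58 ± 0.10, edgeR adjusted p = 3.06e-11) and 2.78-fold lower after Ubn2 than after Ubn1 depletion (-1.48 ± 0.10, edgeR adjusted p = 7.62e-08). Lefty1 was 1.92-fold lower after Hira than after Ubn1 depletion (-0.94 ± 0.12, edgeR adjusted p = 1.83e-06) and 1.89-fold lower after Ubn2 than after Ubn1 depletion (-0.92 ± 0.11, edgeR adjusted p = 1.73e-05). Between Hira and Ubn2 depletion neither differed detectably, at -0.11 ± 0.11 for Lefty2 (95% interval -0.35 to 0.13) and -0.02 ± 0.12 for Lefty1 (-0.27 to 0.23).

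Ratios of counts within a library, which do not depend on scaling between libraries, set the inhibitors against their ligand. The ratio of Lefty2 to Nodal counts was 0.876 and 0.664 in control, 1.28 and 1.30 with Ubn1 depleted, 0.457 and 0.370 with Hira depleted, and 0.418 and 0.335 with Ubn2 depleted. Ubn1-depleted libraries were above control and the other depleted libraries below it, without overlap. The ratio of Lefty1 to Nodal was 0.450 and 0.308 in control and 0.449 and 0.496 after Ubn1 depletion, and it was lower in the Hira (0.264 and 0.208) and Ubn2 (0.209 and 0.197) libraries. The smallest two-sided p of an exact permutation of 2 against 2 libraries is 0.333, so the ratios are given as values and were not tested.

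**Figure D3:**
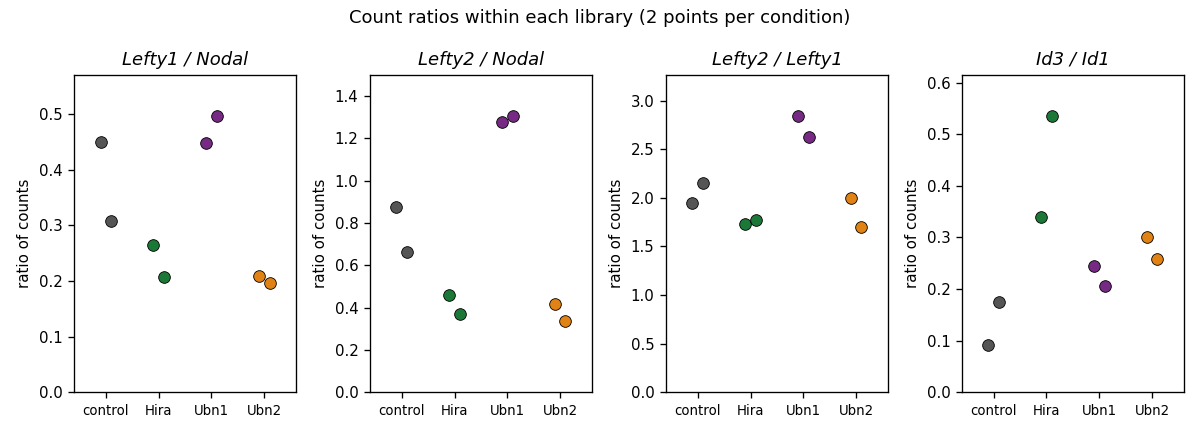
Ratios of raw counts within a library are plotted on the y axis for the 4 groups on the x axis, with 1 point per library. The ratio of Lefty2 to Nodal is 1.28 and 1.30 after Ubn1 depletion and lies between 0.335 and 0.457 after Hira and Ubn2 depletion, with control in between at 0.664 and 0.876.

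Neither intracellular inhibitor was called against control. Smad7 (chr18:75367529-75395935, + strand, 6 exon blocks), which recruits ubiquitin ligases to the receptors, was at 111.5 and 125.2 CPM in control and between 124.6 and 141.9 CPM in the 6 depleted libraries. Its log2 values against control were 0.14 ± 0.08, 0.19 ± 0.10 and 0.09 ± 0.07 after Hira, Ubn1 and Ubn2 depletion, and none passed the test. The upper ends of the 95% intervals were 0.31, 0.39 and 0.24. Skil (chr3:31095058-31122577, + strand, 7 exon blocks) was at 108.4 and 106.4 CPM in control, 99.1 and 105.7 with Hira depleted, 82.3 and 77.0 with Ubn1 depleted, and 99.7 and 78.3 with Ubn2 depleted. The Ubn1 libraries lay below both control libraries by a log2 value of -0.43 ± 0.09 (edgeR adjusted p = 0.00318), which is under the fold threshold, and the Ubn2 libraries by -0.27 ± 0.09 (edgeR adjusted p = 0.0175). The 2 Ubn2 libraries were not alike for Skil, since only the second was near the Ubn1 level. With each library left out in turn, the Skil value after Ubn2 depletion ranged from -0.45 to -0.11.

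Bmp4 (chr14:46383520-46390669, - strand, 4 exon blocks) was at 37.3 and 36.8 CPM in control, 31.4 and 39.6 with Hira depleted, 39.4 and 41.5 with Ubn1 depleted, and 23.6 and 26.6 with Ubn2 depleted. The Ubn2 libraries were the lowest of the 8. Their log2 difference from control was -0.56 ± 0.10 (edgeR adjusted p = 0.000194), or 1.48-fold, so the adjusted p passed and the fold threshold did not. With each library left out in turn it ranged from -0.65, without Ubn2 depletion replicate 2, to -0.48. Bmp4 was called lower after Ubn2 than after Ubn1 depletion, at 1.62-fold (-0.69 ± 0.11, edgeR adjusted p = 0.000352). Hira over Ubn2 depletion gave 0.50 ± 0.12 (edgeR adjusted p = 0.00498), under 1.5-fold. The Ubn2 libraries thus held the highest Nodal and the lowest Bmp4 levels of the 8, and the ratio of Bmp4 to Nodal counts in them was 0.188 and 0.212 against 0.501 and 0.471 in control. Of the exon bases of Bmp4, 89 (3.96%) overlap the antisense gene Gm15217, and the strand setting of the counting is not given in the sources used here, so reads from there cannot be told apart.

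Of the Id genes, Id3 was called against control in all 3 depletions and Id1 and Id2 in none of them. Id3 (chr4:136143497-136145755, + strand, 4 exon blocks) was at 8.57 and 12.7 CPM in control, 24.4 and 39.3 with Hira depleted, 18.4 and 17.0 with Ubn1 depleted, and 31.1 and 29.2 with Ubn2 depleted. All 6 depleted libraries were above both control libraries. Id3 rose 2.89-fold after Hira depletion (log2 1.53 ± 0.18, edgeR adjusted p = 2.25e-06) and 2.79-fold after Ubn2 depletion (1.48 ± 0.14, edgeR adjusted p = 7.79e-08). It rose 1.65-fold after Ubn1 depletion (0.72 ± 0.16, edgeR adjusted p = 0.00419). The value after Ubn1 depletion rested on the first control library, which had 176 counts, and without it the log2 value was 0.48 with an edgeR adjusted p of 0.19. Id3 was 1.79-fold higher after Hira than after Ubn1 depletion (0.84 ± 0.16, edgeR adjusted p = 0.000271) and 1.7-fold higher after Ubn2 than after Ubn1 depletion (0.77 ± 0.12, edgeR adjusted p = 0.000274). The former was 0.47, under the fold threshold, without Hira depletion replicate 2. Hira and Ubn2 depletion were not separated for Id3, at 0.07 ± 0.16 with a 95% interval from -0.28 to 0.41.

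Id1 (chr2:152736251-152737410, + strand, 1 exon block) was at 94.1 and 72.3 CPM in control, 71.9 and 73.4 with Hira depleted, 75.1 and 83.2 with Ubn1 depleted, and 103.4 and 112.9 with Ubn2 depleted. The 2 Ubn2 libraries were the highest of the 8. Their log2 difference from control was 0.38 ± 0.09 (edgeR adjusted p = 0.00242), under the fold threshold. With each library left out in turn, this value ranged from 0.20 to 0.57. The values after Hira (-0.21 ± 0.10) and Ubn1 depletion (-0.07 ± 0.11) did not pass the test. Hira over Ubn2 depletion gave -0.57 ± 0.08 (edgeR adjusted p = 6.12e-05), or 1.48-fold, just under the fold threshold, and Ubn2 over Ubn1 depletion gave 0.45 ± 0.09 (edgeR adjusted p = 0.0027). The genes most like Id1 across the 8 libraries were Sertad1 (r = 0.960), Cep41 (0.954) and Eme1 (0.951). Among members, Nodal was nearest to it at r = 0.419 and Bmp4 farthest at -0.686, while Id3 was at 0.109.

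Id2 (chr12:25093799-25097140, - strand, 3 exon blocks) was the least expressed member and is measured least precisely. It had 110 and 185 counts (5.35 and 5.81 CPM) in control, 6.33 and 5.46 CPM with Hira depleted, 3.78 and 3.15 with Ubn1 depleted, and 4.83 and 5.05 with Ubn2 depleted. The Ubn1 libraries, with 83 and 82 counts, were the lowest. Against control the log2 value was -0.70 ± 0.23 after Ubn1 depletion, with an edgeR adjusted p of 0.0551, just short of the threshold. With each library left out in turn it ranged from -0.84, without Ubn1 depletion replicate 1, to -0.57. Id2 was called 1.72-fold higher after Hira than after Ubn1 depletion (0.78 ± 0.24, edgeR adjusted p = 0.0166), but the DESeq2 Wald test gave an adjusted p of 0.0774 for it. Without Hira depletion replicate 1 the log2 value was 0.66 and without Ubn1 depletion replicate 2 it was 0.64, and neither passed.

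The ratio of Id3 to Id1 counts was 0.0910 and 0.175 in control, 0.339 and 0.535 with Hira depleted, 0.245 and 0.205 with Ubn1 depleted, and 0.301 and 0.259 with Ubn2 depleted. It was therefore higher in each depleted library than in either control library. The start regions of Id3 and Id2 are shown because Id3 was called in each depletion and Id2 had the lowest level of the 9 members. The windows are 250 bases before to 50 bases after the RefSeq start (chr4:136143572-136143871, + strand, inside the longer gene extent of GENCODE, and chr12:25096043-25096342, - strand, GRCm38.p6), printed 5′ to 3′ with capitals marking matches to the 3 motifs named for Nodal.
Id3: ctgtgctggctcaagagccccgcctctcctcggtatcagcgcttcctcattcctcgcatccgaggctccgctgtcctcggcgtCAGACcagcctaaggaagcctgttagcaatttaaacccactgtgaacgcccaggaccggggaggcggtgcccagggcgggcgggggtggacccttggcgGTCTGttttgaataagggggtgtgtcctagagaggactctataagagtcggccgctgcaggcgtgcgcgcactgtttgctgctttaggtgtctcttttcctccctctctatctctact
Id2: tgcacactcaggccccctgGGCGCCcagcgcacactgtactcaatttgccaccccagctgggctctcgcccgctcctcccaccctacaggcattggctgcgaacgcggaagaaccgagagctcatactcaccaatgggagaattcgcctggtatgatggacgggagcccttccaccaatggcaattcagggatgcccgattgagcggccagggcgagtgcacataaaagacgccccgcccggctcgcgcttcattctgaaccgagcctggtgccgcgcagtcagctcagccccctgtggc
The Id3 window held CAGAC starting at position -167 relative to the annotated start and again, on the opposite strand, at -68. The Id2 window held GGCGCC starting at position -231. The window of Bmp4 was searched too and held none of the motifs. A match describes letters and is not a measured binding site.

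Compared with each other, the depletions separated the members in different ways. Between Hira and Ubn2 depletion 0 of 9 members were called by edgeR or by DESeq2, against 17.6% of 18563 genes. In edgeR 4 of the 9 had an unadjusted p under 0.05, as did 8427 of all 18563 genes. Leaving out Hira depletion replicate 1 or either Ubn2 library gave 1 call, Bmp4 at 0.67 and 0.59 without Hira depletion replicate 1 and Ubn2 depletion replicate 2, and Id1 at -0.63 without Ubn2 depletion replicate 1. Between Hira and Ubn1 depletion 4 of 9 were called against 12.7% of 18819 genes, with Lefty1 and Lefty2 lower and Id2 and Id3 higher after Hira depletion. Between Ubn2 and Ubn1 depletion 4 of 9 were called against 8.7% of 18205 genes, with Lefty1, Lefty2 and Bmp4 lower and Id3 higher after Ubn2 depletion. The median log2 fold changes of the members in these 3 comparisons were 0.07, -0.03 and 0.16, beside 0.01, 0.02 and 0.00 for all genes tested.

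**Figure D4:**
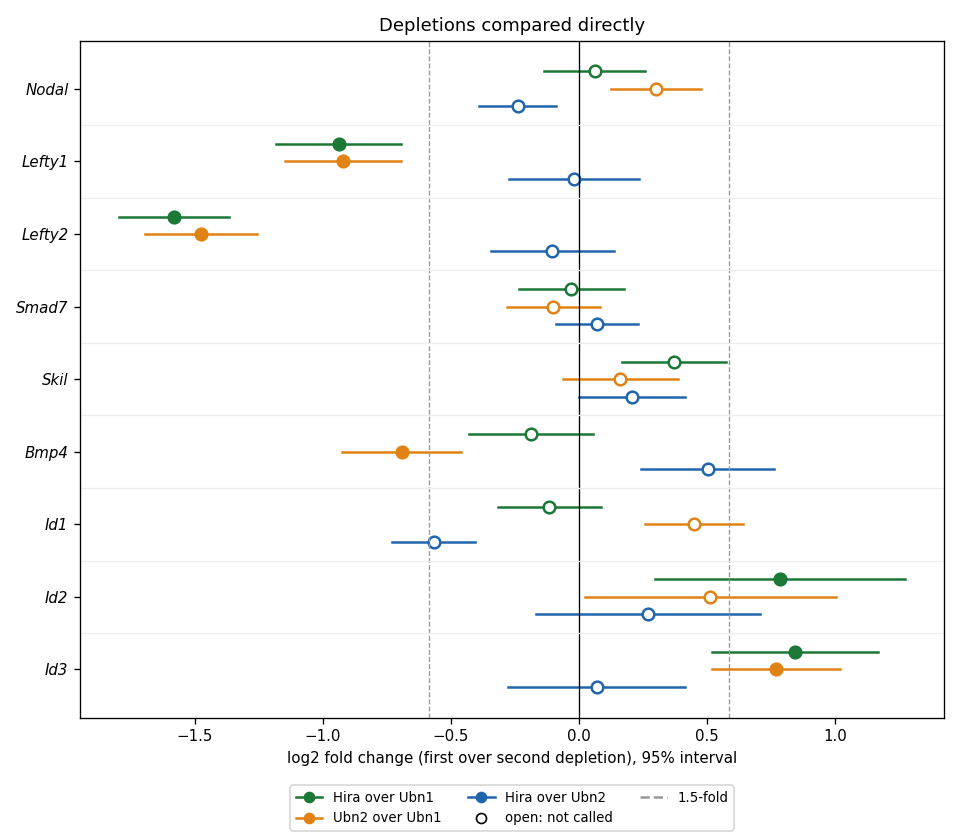
The log2 fold change between depletions is plotted on the x axis for each member, with 95% intervals as lines and filled points for called members. The Lefty genes lie far below 0 in both comparisons with Ubn1 depletion and near 0 between Hira and Ubn2 depletion.

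The wider pathway was read from 74 other genes in 8 lists. The lists were chosen with earlier results of these data known, so their shares beside those of all genes only describe them. After Hira depletion 60 of them could be tested and 16 were called, 13 higher and 3 lower (26.7%, against 16.2% of all genes), or 10 without control replicate 1. After Ubn2 depletion 14 of 54 were called, 5 higher and 9 lower (25.9%, against 18.3%). After Ubn1 depletion 1 of 56 was called (1.79%, against 3.09%). DESeq2 called 12, 1 and 12 of the listed genes after Hira, Ubn1 and Ubn2 depletion, and it gave 295 calls over all genes after Ubn1 depletion. The percentages of all genes are of edgeR calls with all libraries. They are no background for the DESeq2 counts or for the 10 genes. The edgeR counts of single lists below are to be read beside these percentages. The median log2 fold changes over the tested genes were 0.20, 0.08 and -0.11 after Hira, Ubn1 and Ubn2 depletion.

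Among the ligands, processing enzymes and receptors of Nodal and activin, 1 of 9 tested genes was called after Hira depletion, 2 of 9 after Ubn2 depletion and 0 of 9 after Ubn1 depletion, where 6 had an unadjusted p under 0.05 and DESeq2 also called 0. Tdgf1, the Nodal co-receptor also known as Cripto, fell after Ubn2 depletion from 1516 and 1573 CPM to 890 and 910 CPM (log2 -0.78 ± 0.07, edgeR adjusted p = 1.32e-08). Of its 100-base words, 3.17% also occur in the pseudogene Tdgf1-ps1. Gdf3, a related ligand that also uses Cripto, rose from 41.6 and 46.1 to 72.9 and 65.0 CPM (0.65 ± 0.09, edgeR adjusted p = 5.97e-06), though 2 of the settings that left out a library put it under the fold threshold, at 0.58 without control replicate 1 and 0.57 without Ubn2 depletion replicate 1. Gdf1, a ligand that pairs with Nodal, rose after Hira depletion from 8.18 and 9.49 to 14.0 and 14.5 CPM (0.67 ± 0.15, edgeR adjusted p = 0.0018) and was at 0.57 without control replicate 1. All annotated exon bases of Gdf1 (100%) also belong to Cers1 on the same strand, so this value is uncertain.

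Of the transducers, cofactors and inhibitors of SMAD2 and SMAD3, 0 of 11 tested genes were called in any of the 3 depletions by edgeR or DESeq2, with 4, 1 and 4 at an unadjusted p under 0.05 in edgeR after Hira, Ubn1 and Ubn2 depletion. The SMAD2/3 target genes, mostly mesendoderm factors, were few and low, with 2 of 5 called after Hira depletion, 1 of 4 after Ubn2 depletion and 0 of 4 after Ubn1 depletion, where 0 had an unadjusted p under 0.05, and with 0 called by DESeq2 in each. Sox17 had 13 and 22 counts in control and 55 and 29 after Hira depletion (log2 1.18 ± 0.41, edgeR adjusted p = 0.0296). Without control replicate 1, control replicate 2 or Hira depletion replicate 1 it did not pass, with edgeR adjusted p from 0.113 to 0.189. Of the 100-base words of Sox17, 13.3% also occur in the antisense Gm37587. T, also called Brachyury, had 11 and 16 counts in control and 3 and 1 after Ubn2 depletion, and its call was lost when any 1 of the 4 libraries was left out (edgeR adjusted p from 0.0758 to 0.211).

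Of the BMP target genes, 4 of 7 were called after Hira depletion (3 higher and 1 lower), 4 of 6 after Ubn2 depletion (2 in each direction) and 0 of 6 after Ubn1 depletion, where 3 had an unadjusted p under 0.05 and DESeq2 called 0. Dusp9, a phosphatase that restrains ERK, fell from 182 and 180 CPM in control to 109 and 102 after Hira depletion (-0.80 ± 0.08, edgeR adjusted p = 1.2e-07) and to 95.3 and 106 after Ubn2 depletion (-0.85 ± 0.07, edgeR adjusted p = 5.54e-09). Id4, the remaining Id gene, rose after Hira depletion from 1.56 and 1.51 to 5.03 and 4.32 CPM (1.60 ± 0.27, edgeR adjusted p = 0.000104), and was at 3.86 and 3.52 CPM after Ubn2 depletion (1.27 ± 0.28, edgeR adjusted p = 0.00107). Msx2, a homeobox factor, rose after Ubn2 depletion from 0.633 and 1.41 to 3.31 and 3.16 CPM (1.59 ± 0.34, edgeR adjusted p = 0.000853), and was at 2.91 and 2.66 CPM after Hira depletion (1.36 ± 0.36, edgeR adjusted p = 0.00509). Both genes were called higher in both depletions. The list therefore held calls in both directions.

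Of the BMP receptors and their SMADs, 2 of 7 were called after Hira depletion and 0 of 6 after Ubn1 or Ubn2 depletion, where edgeR gave an unadjusted p under 0.05 for 0 and 2 and DESeq2 called 0. Smad1, a transducer of BMP4, rose from 20.6 and 23.5 to 35.3 and 35.6 CPM after Hira depletion (0.66 ± 0.11, edgeR adjusted p = 7.81e-05), and was at 0.57 without control replicate 1. Smad9 had 6 counts in each control library and 39 and 16 after Hira depletion, a call that DESeq2 did not make and that was lost without control replicate 2 (edgeR adjusted p = 0.101) or Hira depletion replicate 1 (0.151). Among the other BMP ligands, 1 of 5 was called after Hira depletion and 2 of 4 after Ubn2 depletion. Bmp7 fell after Ubn2 depletion from 10.4 and 8.99 to 4.28 and 6.07 CPM (-0.90 ± 0.19, edgeR adjusted p = 0.000829). Bmp6 had 62 and 77 counts in control and 25 and 33 after Ubn2 depletion (-0.94 ± 0.32, edgeR adjusted p = 0.024, not called by DESeq2), with an edgeR adjusted p of 0.117 without control replicate 1 and 0.19 without Ubn2 depletion replicate 1. Bmp2 had 1 and 4 counts in control and 16 and 15 after Hira depletion, and its call was lost without control replicate 1, control replicate 2 or Hira depletion replicate 2 (edgeR adjusted p from 0.0503 to 0.11). No ligand of this list was called after Ubn1 depletion (0 of 4 by edgeR and DESeq2, 1 at an unadjusted p under 0.05). The antagonist Fst, which encodes follistatin, an inhibitor of activin and BMPs, rose from 0.779 and 1.51 CPM to 2.85 and 3.32 after Hira depletion (1.35 ± 0.34, edgeR adjusted p = 0.00357). It was at 3.72 and 2.45 CPM after Ubn2 depletion (1.38 ± 0.34, edgeR adjusted p = 0.00298, and 0.054 without Ubn2 depletion replicate 1). It was the 1 antagonist called in each of the 2 comparisons, of 5 and 4 tested, and 0 of 5 were called after Ubn1 depletion by edgeR or DESeq2, with 0 at an unadjusted p under 0.05.

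Eng, which encodes endoglin, a co-receptor for TGF-beta and BMP ligands, was the gene of the 74 called in all 3 depletions. It was at 36.8 and 37.5 CPM in control, 95.9 and 96.4 after Hira depletion (1.35 ± 0.08, edgeR adjusted p = 3.06e-10), 71.2 and 69.0 after Ubn1 depletion (0.91 ± 0.10, edgeR adjusted p = 3.85e-07), and 94.8 and 88.8 after Ubn2 depletion (1.30 ± 0.08, edgeR adjusted p = 1.12e-10). Its order of groups was that of Id3, with all depleted libraries above control and the Ubn1 libraries in between. Its list holds TGF-beta ligands, carriers and receptors. After Hira depletion 5 of 11 tested were called, 4 higher and 1 lower, against 16.2% of all genes. After Ubn2 depletion 4 of 10 were called, 1 higher and 3 lower, against 18.3%. After Ubn1 depletion Eng was the 1 called of 11, against 3.09%, with 5 at an unadjusted p under 0.05 in edgeR. Tgfbr2, the type II TGF-beta receptor, rose from 1.31 and 2.17 to 5.81 and 7.64 CPM after Hira depletion (1.88 ± 0.27, edgeR adjusted p = 1.62e-05). Ltbp3, which holds latent TGF-beta in the matrix, fell from 9.69 and 9.30 to 3.68 and 3.42 CPM after Ubn2 depletion (-1.42 ± 0.19, edgeR adjusted p = 5e-06). Of the endothelium markers, 2 of 4 tested were called higher after Hira and 3 of 5 after Ubn2 depletion, Tek among them. None was called after Ubn1 depletion. Pecam1, most of their sum, was lower than in control in the Hira and Ubn2 libraries. The part of these markers in the values of Eng was not tested.

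**Figure D5:**
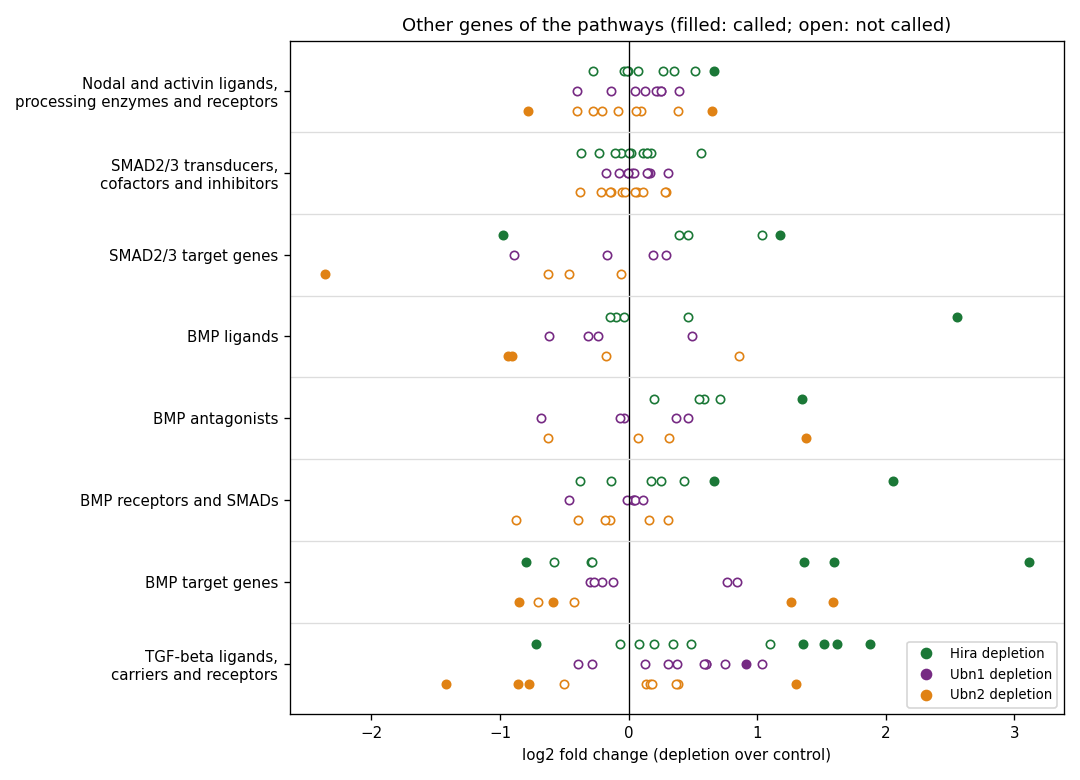
The log2 fold changes against control of the tested genes of the wider pathway are plotted on the x axis, 1 point per gene, with the 8 lists on the y axis and 1 color per depletion. Filled points are called. The SMAD2/3 transducers hold no filled point, and 1 gene, Eng, is filled after Ubn1 depletion.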

How the data were processed

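RNA-seq libraries of mRNA from E14 ESCs (2 per group) were analysed from raw read counts per gene, which the authors deposited without normalization in 3 tables of 55418 genes. The submitters' processing notes name Trim Galore, STAR, featureCounts and GRCm38. Versions, strand setting and the handling of multi-mapped reads are not given in the sources used here. The control columns of the 3 tables were identical (0 differing values) and were used once. All values of this text are computed from those counts.

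Each comparison used its own 4 libraries in edgeR 4.0.16 (R 4.3.3), with TMM normalization, filterByExpr, quasi-likelihood tests and Benjamini-Hochberg adjustment over all genes tested. A call needed both an adjusted p under 0.05 and a change of over 1.5-fold. Standard errors were derived from each log2 value and the square root of its F statistic. CPM values used TMM-scaled totals over the 8 libraries, and the TMM factors lay between 0.970 and 1.06. Levels per kb were divided by the union of exons in GENCODE M21. Promoter windows came from the RefSeq table of GRCm38.p6, and those of 4 of the 9 members were searched. The window of Smad7 was not used. Likeness between genes was Pearson's r of log2(CPM + 2). The models were tested on simulated data with larger changes than those of most members. Smaller changes were not covered.

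All 9 members and the targeted genes are named, with up to 2 called genes of smallest adjusted p from each pathway list and comparison with control, the 2 highest genes of each marker list, and the 3 genes most like Nodal and Id1. The values of 1 gene that this rule names are not reported here. The members and lists were chosen with earlier results of these data known. Alternatives were DESeq2 1.42.0 (Wald test), its size factors in edgeR, no filter, a stricter filter (10 or more counts per library), a joint fit of the 8 libraries, a replicate block, calls without the fold threshold, and each library left out. Counting intervals and p-values cover these libraries only.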

Additional observations from a re-analysis of the deposited data

Results flagged for a closer look

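For 4 members the log2 values of the depletions against control had opposite signs and the direct comparison of the depletions was called. Both Lefty genes had values above 0 after Ubn1 depletion and below 0 after Hira and Ubn2 depletion. Hira over Ubn1 depletion gave a log2 value of -0.94 for Lefty1 and -1.58 for Lefty2, and Ubn2 over Ubn1 depletion gave -0.92 and -1.48. For Bmp4, at 0.13 ± 0.11 after Ubn1 and -0.56 ± 0.10 after Ubn2 depletion against control, Ubn2 over Ubn1 depletion gave -0.69. For Id2, at -0.70 ± 0.23 after Ubn1 and 0.06 ± 0.20 after Hira depletion against control, Hira over Ubn1 depletion gave 0.78. Of the single steps from control behind these differences, those of the Lefty genes after Ubn1 depletion passed both thresholds, and those of Lefty2 after Hira and Ubn2 depletion and of Bmp4 after Ubn2 depletion passed the adjusted p alone. The other single steps did not pass the adjusted p, and those of Lefty1 after Hira and Ubn2 depletion and of Id2 after Hira depletion crossed 0 when a library was left out. The Lefty2 values did not cross 0, but came as near to it as -0.27 after Hira and -0.14 after Ubn2 depletion. The libraries of the compared depletions did not overlap for any of the 4 genes. As these genes were picked because that direct comparison was called, the lack of overlap is no separate evidence.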

How the results depend on the processing

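Over 594 log2 fold changes of members under the alternatives, 551 kept their direction and call, 23 were newly called, 6 were no longer called and 14 changed sign. Of the 23, 14 came from dropping the fold threshold, a setting that kept the main log2 values. By the adjusted p alone, 3, 5 and 6 members passed after Hira, Ubn1 and Ubn2 depletion against control and 3 between Hira and Ubn2 depletion, and 4 of the other pathway genes passed after Ubn1 depletion. Over all genes that rule gave 6644, 1426 and 7118 calls against control, and 6641, 4582 and 3019 for Hira against Ubn2, Hira against Ubn1 and Ubn2 against Ubn1. DESeq2 gave 295 calls after Ubn1 depletion and 1007 between Ubn2 and Ubn1 depletion, and leaving out control replicate 1 gave 350 after Ubn1 depletion.

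With each library left out in turn, members called ranged from 1 to 2 after Hira depletion (2 without control replicate 2, where Lefty2 was at -0.59), from 2 to 4 after Ubn1 depletion, from 2 to 3 after Ubn2 depletion (3 without Ubn2 replicate 2, where Bmp4 was at -0.65) and from 3 to 4 between Hira and Ubn1 depletion. Between Hira and Ubn2 depletion they ranged from 0 to 1, with Bmp4 at 0.67 without Hira replicate 1 and 0.59 without Ubn2 replicate 2, and Id1 at -0.63 without Ubn2 replicate 1. Other pathway genes called after Hira depletion ranged from 10 (without control replicate 1) to 19. Id2 passed after Ubn1 depletion without a filter (edgeR adjusted p = 0.0429), with all 8 libraries in one edgeR fit (0.0446), and without Ubn1 replicate 1 (log2 -0.84).

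The 14 changes of sign all came from leaving out a library, and none of these values was called. In these ranges over the libraries left out, Lefty1 (-0.443 to 0.0318), Bmp4 (-0.259 to 0.0772) and Id2 (-0.0572 to 0.155) crossed 0 after Hira depletion, Id1 (-0.258 to 0.133) after Ubn1 depletion and Lefty1 (-0.398 to 0.0742) after Ubn2 depletion. Between Hira and Ubn2 depletion Lefty1 (-0.179 to 0.112), Lefty2 (-0.256 to 0.0588), Smad7 (-0.0107 to 0.148) and Id3 (-0.299 to 0.386) did so. Smad7 (-0.115 to 0.0494) crossed 0 between Hira and Ubn1 depletion, and Skil (-0.0258 to 0.328) between Ubn2 and Ubn1 depletion. The cause was not tested.

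Same-numbered libraries had correlations of deviations from -0.0986 to 0.0978 over 19264 genes, and with 2 numbers the libraries share only a number. A replicate block gave 4 members called after Ubn1 depletion, with Id2 newly passing at an edgeR adjusted p of 0.0258, and changed no other member's call.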
